A study of Mus musculus with 2 samples.

Results

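E13.5 germ cells with high histone transcripts and low mitosis transcripts, called the E13.5 S phase set here, were 560 of the 2549 germ barcodes of the E13.5 library. The series holds 5839 barcodes from male CD1 mouse embryos, an outbred strain, in 1 library at E13.5 and 1 at E12.5. By the rule below, 5043 of them were germ barcodes. Cells were sorted for Oct4-GFP, a reporter of the germ cell and pluripotency gene Pou5f1, and libraries were made with 10x v2 chemistry, which counts RNA molecules by a molecular identifier (UMI). No mutant, treated or female group is part of the comparison. A germ barcode had 500 or more genes, 5000 or more UMIs, under 10% mitochondrial UMIs and at least 0.2% of its UMIs in Dazl, Pou5f1, Dppa3 and Dppa5a. The set was the top 25% by the summed UMIs of Hist1h1b, Hist1h1a, Hist1h1e, Hist1h2ap and Hist1h2ae per 10000 UMIs, without the top 25% by Plk1, Aurka, Ccnb1, Cdc20, Cenpf and Tpx2, which is called the mitosis-high set. It was compared with the 1275 cells at or below the median histone score of the same library, called the low-histone set. The same rule gave an E12.5 S phase set of 618 cells and an E12.5 low-histone set of 1247 cells, out of 2494 germ barcodes.

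During S phase a cell copies its DNA once, from origins that were loaded with the MCM helicase beforehand, and makes new histones to package the copy. The clustered histone genes are transcribed mainly in S phase, and most of their mRNAs end in a stem-loop and not in a poly(A) tail, so an assay that captures poly(A) RNA counts only part of them. Male germ cells of the mouse proliferate after reaching the gonad and then enter mitotic arrest in the fetal testis, while they take up the male programme marked by Nanos2. The name S phase rests here on transcripts alone, since DNA content was not measured in these data.

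Promoters of the 5 linker histone genes of the Hist1 cluster are shown first because Hist1h1b, Hist1h1a and Hist1h1e chose the cells, while Hist1h1c and Hist1h1d were left for comparison. All lie on chromosome 13 and were read from RefSeq (GRCm38.p6), 5′ to 3′ on the gene's strand, with 30 bases from the transcription start at the right end. Capitals mark CCAAT (searched on both strands), TATAAA (searched on the strand shown) and AAACACA (searched on both strands); these words do not overlap one another.
Hist1h1b, chr13:21780596-21780795, minus strand: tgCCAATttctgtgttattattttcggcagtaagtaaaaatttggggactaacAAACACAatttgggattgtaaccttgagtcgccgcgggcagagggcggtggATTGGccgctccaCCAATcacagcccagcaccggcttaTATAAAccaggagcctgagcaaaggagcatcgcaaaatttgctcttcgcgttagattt
Hist1h1a, chr13:23763498-23763697, plus strand: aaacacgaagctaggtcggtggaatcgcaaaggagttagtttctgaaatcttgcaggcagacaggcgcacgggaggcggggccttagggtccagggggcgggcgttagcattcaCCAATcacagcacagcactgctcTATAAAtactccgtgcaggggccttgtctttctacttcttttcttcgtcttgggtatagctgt
Hist1h1e, chr13:23622529-23622728, minus strand: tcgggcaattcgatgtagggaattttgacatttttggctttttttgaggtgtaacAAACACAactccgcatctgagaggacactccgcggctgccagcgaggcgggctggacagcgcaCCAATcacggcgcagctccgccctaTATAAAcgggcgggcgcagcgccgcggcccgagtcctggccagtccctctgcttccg
Hist1h1c, chr13:23738637-23738836, plus strand: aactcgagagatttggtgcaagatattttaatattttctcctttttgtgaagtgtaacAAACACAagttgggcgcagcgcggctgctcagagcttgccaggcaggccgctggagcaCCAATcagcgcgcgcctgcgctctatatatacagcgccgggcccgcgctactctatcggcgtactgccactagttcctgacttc
Hist1h1d, chr13:23554862-23555061, plus strand: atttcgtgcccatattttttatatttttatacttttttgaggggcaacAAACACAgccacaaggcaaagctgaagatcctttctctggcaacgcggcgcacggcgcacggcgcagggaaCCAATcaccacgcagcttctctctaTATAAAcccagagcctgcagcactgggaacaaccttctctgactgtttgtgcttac
The CCAAT copy nearest to the start lay 51 to 56 bases before it in all 5 promoters, TATAAA was in 4 of 5 and AAACACA in 4 of 5. Over windows of the same length, CCAAT was in 32.4% of the promoters of all genes, TATAAA in 6.85% and AAACACA in 5.38%.

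The histone score split the E13.5 library into a low and a high group with few cells between them. There were 2008 cells under 3 histone UMIs per 10000, 54 from 3 to under 6, and 487 at 6 or more. The E12.5 library had 1297, 212 and 985 cells in these ranges. With 5 per 10000 as a mark in the gap, chosen after seeing the data, 502 E13.5 germ cells (19.7%, 95% exact binomial interval 18.2 to 21.3%) lay at or above it, against 1038 E12.5 germ cells (41.6%, 39.7 to 43.6%). After thinning each cell to 10000 UMIs these intervals were 18.5 to 21.6% at E13.5 and 40.3 to 44.3% at E12.5. With 1 library per stage, stage and library cannot be told apart.

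**Figure D1:**
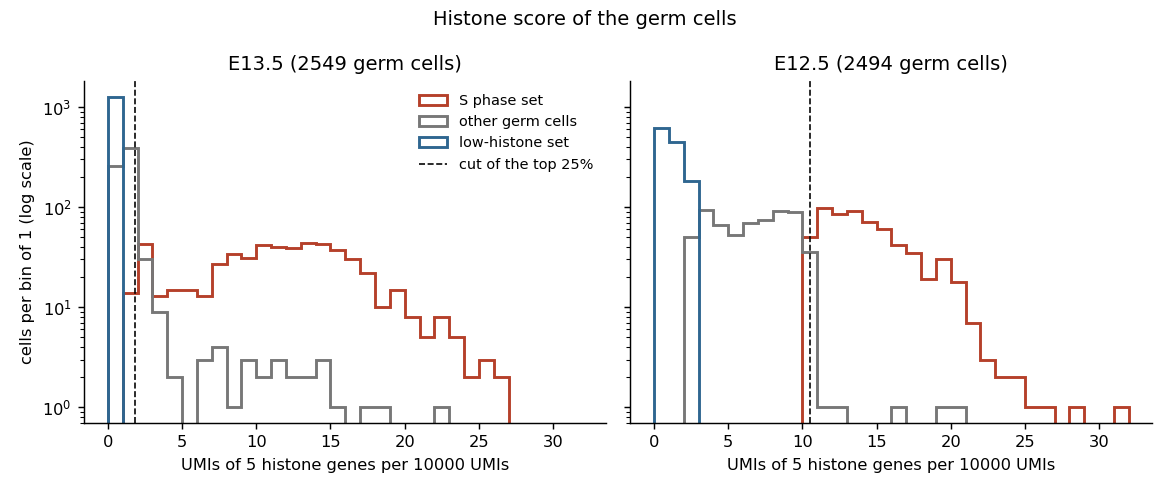
Number of germ cells (log scale) by histone score, in bins of 1 UMI of the 5 histone genes per 10000 UMIs, at E13.5 (left) and E12.5 (right). The dashed line is the cut of the top 25%, at 1.84 in E13.5 and 10.5 in E12.5, so the E13.5 set reaches below the gap in the distribution.

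The top 25% began at a score of 1.84 per 10000, below the gap, where the lowest member had 1.84 and the highest cell outside had 1.83. The set's scores ran from 1.84 to 26.7, with a median of 11.8, against 0 to 0.717 and a median of 0.306 in the low-histone set. Of the 560 cells, 475 were at 5 or more and 85 below; 32 lay within 0.5 above the cut, and 181 cells of the library lay within 0.5 below it. UMIs of all 5 histones were found in 383 cells of the set. Within the top 25% by histone score, 78 of 638 cells (12.2%) were left out for their mitosis genes at E13.5, against 6 of 624 (0.962%) at E12.5. These shares are not of like cells, as the top 25% began at 1.84 at E13.5 and 10.5 at E12.5. The 78 cells had a median histone score of 2.98 and the 6 cells 14.4. The low-histone set was not free of dividing cells: 308 of its 1275 cells (24.2%) were in the mitosis-high set at E13.5, against 565 of 1247 (45.3%) at E12.5.

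The E13.5 library held 59842242 UMIs over 2992 barcodes and 16430 genes, and the E12.5 library held 60383440 UMIs over 2847 barcodes and 16180 genes. Summed counts were 13490922 UMIs in the E13.5 S phase set and 28013454 in the E13.5 low-histone set, with medians of 23512.5 and 20593 UMIs, 4502.5 and 4233 genes, and 4.56% and 4.79% mitochondrial UMIs per cell. Germ cell markers summed to 7204 CPM (UMIs per 1e6 UMIs of the summed cells) in the set and 6985 CPM in the low-histone set. Sertoli cell markers (Sox9 at 0 UMIs in the set) summed to 11.4 CPM in the set and 11.3 CPM in the low-histone set, and endothelial markers to 37.1 and 35.8 CPM. None of the 5 macrophage markers was listed for the E13.5 library, where every listed gene was found in 3 or more barcodes. They therefore have no measured level in either set. Erythroid markers summed to 915 CPM in the set and 23.8 CPM in the low-histone set, but 1 barcode with 29.9% erythroid UMIs held 97.6% of them, and without it the set had 21.8 CPM. Both tables shared 24 barcode sequences, 4 of them in the E13.5 set. Scrublet called 10 of the 560 cells doublets.

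Over all genes the S phase set differed little from the low-histone set, with a median near equality. Of 6824 genes at 10 CPM or more over all E13.5 germ barcodes, without the 11 genes of the rule, 262 (3.84%) were at least 1.5-fold higher in the set and 179 (2.62%) at least 1.5-fold lower; the median log2 ratio was -0.02. Because the cells were chosen on counts of these libraries, and each stage is 1 library, ratios of the set over the low-histone set are a description with no test. Their 95% intervals are exact binomial ones that cover counting error only. The shares of 3.84% higher and 2.62% lower are the background for each count of list genes past this minimum in this comparison. Cells of the set count towards the minimum, so a gene may pass it through its level in the set. Of the genes on the lists of origin licensing, replication fork and nucleotide supply together, 81 were listed, 74 passed the minimum, 41 were at least 1.5-fold higher and 0 lower. Cell by cell these lists took a median of 105 UMIs per 10000 in the set and 66.3 in the low-histone set. The 85 cells of the set below 5 histone UMIs per 10000 had 89.6, and the 475 above had 107.

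**Figure D2:**
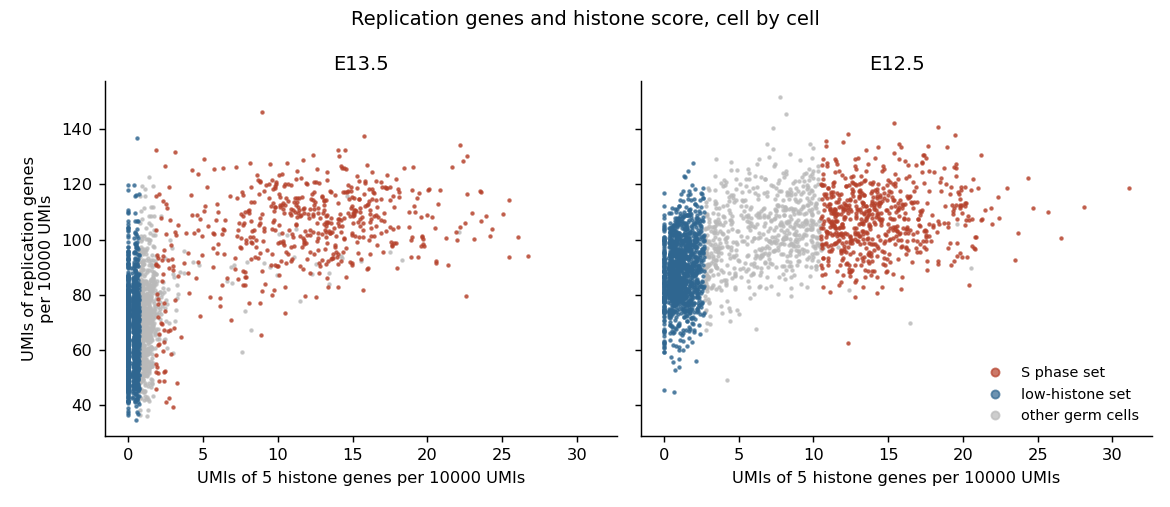
UMIs of the replication lists per 10000 UMIs (vertical) against the histone score (horizontal) for each germ cell at E13.5 (left) and E12.5 (right). The S phase sets have similar medians at both stages, 105 at E13.5 and 108 at E12.5, while the low-histone sets have 66.3 at E13.5 and 88.4 at E12.5.

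The 5 histones of the rule were 35.9-fold to 46.7-fold higher in the set by construction. Hist1h1b, a linker histone, had 4657 UMIs (345 CPM) in the set and 207 UMIs (7.39 CPM) in the low-histone set. When cells were chosen on one random share of each cell's UMIs and levels were taken from the rest, the 5 ratios were 16.2 to 20.8. Outside the rule, 59 clustered histone genes were listed, most of them on chromosome 13, and only Hist1h1c passed the minimum level of 10 CPM. Hist1h1c had 12.1 CPM over all E13.5 germ barcodes and 4.64 CPM in the low-histone set, so its level in the set carried it past the minimum. No support is read from its place among the largest ratios. Together the 59 had 2737 UMIs (203 CPM) in the set and 1185 UMIs (42.3 CPM) in the low-histone set, 4.80-fold higher (4.48 to 5.14). Of the 47 with 3 or more UMIs in both, 42 were at least 1.5-fold higher and 0 lower. With no minimum level beyond 3 UMIs, 1274 of 13506 genes (9.43%) were at least 1.5-fold higher and 1467 lower. The clustered histones are of the same gene family as the rule, in cells chosen by that rule. Reads of near-identical histone copies may be split between genes by the authors' counting, so single copies are uncertain. Hist1h1c, the most frequent of them, had 459 UMIs (34.0 CPM) in the set and 130 UMIs (4.64 CPM) in the low-histone set, 7.33-fold higher (6.02 to 8.98). Hist1h1d, whose promoter is shown above, had 394 and 43 UMIs, 19.0-fold higher (13.9 to 26.7). Core histones ranged more widely: Hist2h2ac was 10.2-fold higher (152 and 31 UMIs), Hist1h4i 2.35-fold higher (178 and 157 UMIs), and Hist1h2bc had 59 and 149 UMIs, a ratio of 0.82 whose interval (0.598 to 1.12) held 1.

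Some transcripts for histone RNA processing and histone delivery to new DNA were higher in the set. Of 17 listed, 16 passed the minimum, 7 were at least 1.5-fold higher and 0 lower, with a median log2 ratio of 0.52 against -0.02 for all tested genes. Slbp, the protein that binds the stem-loop of histone mRNA (chr5:33634952-33652574, minus strand, GRCm38), had 6609 UMIs (490 CPM) in the set and 4556 UMIs (163 CPM) in the low-histone set, 3.01-fold higher (2.90 to 3.13). Both specific subunits of the CAF-1 chaperone, which places histones at the fork, were higher: Chaf1b had 44.6 CPM in the set and 15.4 CPM in the low-histone set (2.90-fold), and Chaf1a 75.9 and 32.0 CPM (2.37-fold). Nasp, a chaperone of H3 and H4 and the most abundant gene on the list, had 556 and 308 CPM (1.81-fold). At the other end Rbbp7 had 219 and 221 CPM. Among 10 replacement histones, which are made outside S phase as well, 3 were at least 1.5-fold higher and 0 lower. The shares over all tested genes were 3.84% and 2.62%. H2afx, which is phosphorylated at DNA breaks, had 245 CPM in the set and 91.8 CPM in the low-histone set (2.67-fold), and the centromeric histone Cenpa 165 and 238 CPM (1.44-fold lower).

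Origin licensing factors load the MCM helicase before S phase. Of 17 listed, 16 passed the minimum, 9 were at least 1.5-fold higher and 0 lower (median log2 0.81). Gmnn encodes geminin, which blocks a second licensing round; it had 5174 UMIs (384 CPM) in the set and 3599 UMIs (128 CPM) in the low-histone set, 2.99-fold higher (2.86 to 3.12). The helicase subunits Mcm5 (177 and 75.2 CPM, 2.35-fold) and Mcm4 (84.9 and 38.3 CPM, 2.22-fold) were also at the high end, and Mcm2, Mcm3 and Mcm6 were 1.79-fold to 2.13-fold higher. Origin recognition subunits lay at the low end: Orc4 had 44.6 and 46.8 CPM, and Orc5 13.6 and 13.8 CPM. Cdc6, a loading factor just under the minimum level, had 206 UMIs (15.3 CPM) in the set and 129 UMIs (4.60 CPM) in the low-histone set, 3.32-fold higher (2.65 to 4.16).

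Sequence words of E2F, the transcription factor family that drives genes of DNA replication, were searched in the RefSeq promoters (GRCm38.p6) as TTTGGCGC, TTTCCCGC, TTTGCCGC or TTTCGCGC on both strands. They were in 24.6% of the promoters of genes at least 1.5-fold higher in the set (52 of 211 with a promoter entry), in 5.97% of those of all tested genes, in 0.667% of those of lower genes and in 2.60% of those of all genes in the table. Among the 12 genes with the largest ratios under the rule for named genes, 9 had a promoter entry and 0 held one of these words. That rule leaves out predicted genes, and with them Pclaf, given as 2810417H13Rik. Pclaf has a large ratio, given below, and its promoter held a word. Among the 16 licensing genes tested, 11 had 1 promoter entry and 7 held one. Windows are shown for the helicase genes Mcm5 and Mcm6, licensing genes higher in the set, 5′ to 3′ on the gene's strand with the words in capitals. In Mcm5 a pair of words on opposite strands overlaps.
Mcm5, chr8:75109335-75109392, plus strand: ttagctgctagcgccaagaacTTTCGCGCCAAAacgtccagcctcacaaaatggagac
Mcm6, chr1:128359720-128359777, minus strand: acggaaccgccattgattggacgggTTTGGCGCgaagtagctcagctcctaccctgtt
A match is a description of the letters and not a measured binding site. CCAAT was in 55.5% of the promoters of higher genes, 37.1% of those of tested genes and 38.0% of those of lower genes. The stretches searched differed. E2F words were searched over 300 bases, 250 before the start and 50 from it. CCAAT was searched over 200 bases, 170 before the start and 30 from it.

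The replication fork list had 43 genes, of which 38 passed the minimum, 25 were at least 1.5-fold higher and 0 lower (median log2 0.76). Tipin, a fork protection factor (chr9:64281581-64305424, plus strand, GRCm38) and a marker of the set that its rule did not use, had 3608 UMIs (267 CPM) in the set and 3257 UMIs (116 CPM) in the low-histone set, 2.30-fold higher (2.19 to 2.41). The largest ratios on the list were those of Wdhd1, which links helicase and polymerase alpha (63.2 and 18.3 CPM, 3.46-fold), and Ticrr, needed to fire origins (25.4 and 9.25 CPM, 2.75-fold). Dscc1, which helps load the sliding clamp and was on no list, had 34.4 and 9.71 CPM (3.54-fold). Pcna, the clamp itself, had 98.7 CPM in the set and 37.2 CPM in the low-histone set (2.65-fold). Top1, a topoisomerase that also serves transcription, was at the low end with 115 and 131 CPM. The clamp-binding factor Pclaf, given as 2810417H13Rik, on no list and named after its value was seen, had 50.1 and 7.96 CPM (6.29-fold, 5.40 to 7.36).

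Transcripts of DNA precursor supply ran from 5.66-fold higher to 1.26-fold lower. Of 20 tested, 7 were at least 1.5-fold higher and 0 lower (median log2 0.51). Thymidine kinase Tk1 had 679 UMIs (50.3 CPM) in the set and 249 UMIs (8.89 CPM) in the low-histone set, 5.66-fold higher (4.89 to 6.57). Rrm2, the regulated subunit of ribonucleotide reductase, had 944 UMIs (70.0 CPM) and 400 UMIs (14.3 CPM), 4.90-fold higher (4.36 to 5.52), and thymidylate synthase Tyms was 2.46-fold higher. Nme1, a nucleoside diphosphate kinase and the most abundant gene on the list, had 932 and 887 CPM. Samhd1, which degrades DNA precursors, was at the low end with 45.4 CPM in the set and 57.3 CPM in the low-histone set.

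Regulators of the G1/S step were led by Fbxo5 and Ccne1. On this list 20 of 32 genes passed the minimum, 8 were at least 1.5-fold higher and 0 lower (median log2 0.28). Fbxo5 encodes Emi1, an inhibitor of the anaphase-promoting complex (chr10:5799160-5805600, minus strand, GRCm38), and is a marker of the set outside its rule. It had 1788 UMIs (133 CPM) in the set and 661 UMIs (23.6 CPM) in the low-histone set, 5.62-fold higher (5.13 to 6.15). Thinned to 10000 UMIs, 70.6% of 544 cells of the set carried an Fbxo5 UMI (91.1% unthinned), against 15.5% of 1238 cells of the low-histone set (26.3% unthinned) and 17.6% of 17 barcodes with Sertoli markers (3.799 to 43.4%). Another 8 Sertoli-marker barcodes were too shallow to thin; over all of them the share was 20% unthinned and the median depth 10797 UMIs. Since 52.9% of the same 17 barcodes carried an Mki67 UMI, they give no background level for a cell cycle gene. Cyclin E1 (Ccne1) had 45.7 CPM in the set and 10.7 CPM in the low-histone set (4.26-fold, 3.71 to 4.91). Skp2, a ubiquitin ligase subunit that targets Cdk inhibitors, had 26.5 and 11.3 CPM (2.34-fold). Ccne2, under 10 CPM in both sets, had 9.56 and 3.78 CPM (2.53-fold). E2f8, a repressor of the E2F family that lay under the minimum level and was named after its value was seen, had 285 UMIs in the set and 54 in the low-histone set, 10.96-fold higher (8.17 to 14.9). Among the brakes on the cycle, Cdkn1c had 65.4 CPM in the set and 81.0 CPM in the low-histone set, and Cdkn1b 7.86 and 10.0 CPM. Cyclin D1 (Ccnd1) had 7.71 and 10.7 CPM; all 3 were less than 1.5-fold lower.

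Some genes of homologous recombination were higher in the set, and mismatch repair genes were not past 1.5-fold. Of 21 homologous recombination and Fanconi genes tested, 12 were at least 1.5-fold higher and 0 lower (median log2 0.76), with Rad51ap1 (74.2 and 21.8 CPM, 3.40-fold), Brca1 (54.2 and 17.8 CPM, 3.05-fold) and Exo1 (73.3 and 27.5 CPM, 2.67-fold) at the high end. The replication checkpoint had 2 of 10 higher, where 3.84% of all tested genes were. These were Wee1, the kinase that holds back Cdk1 (33.8 and 10.6 CPM, 3.19-fold), and Chek1, the kinase that signals stalled forks (50.03 and 21.6 CPM, 2.32-fold). All 7 mismatch repair genes were within 1.5-fold, as were 93.5% of all tested genes. Msh6 was highest of the 7, at 108 CPM in the set and 76.3 CPM in the low-histone set.

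**Figure D3:**
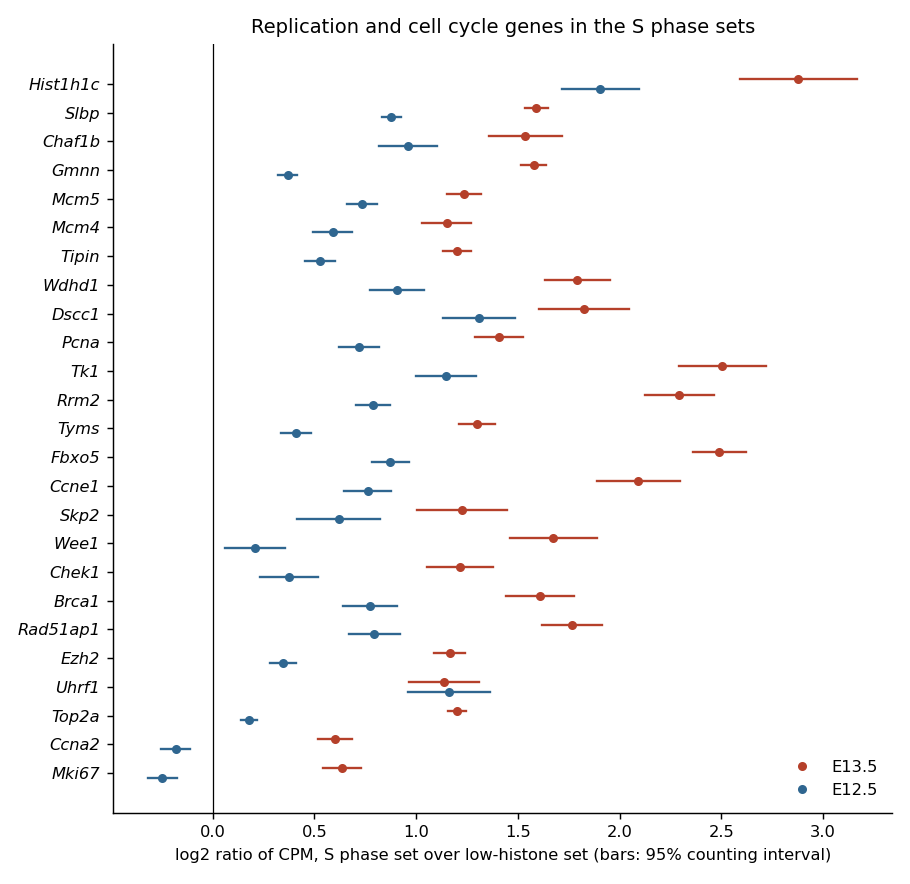
Log2 ratio of CPM, S phase set over low-histone set, for 25 replication and cell cycle genes at E13.5 (red, upper of each pair) and E12.5 (blue), with 95% counting intervals. Every ratio shown but that of Uhrf1 is larger at E13.5, from 2.87 for Hist1h1c to 0.60 for Ccna2.

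Genes of G2 and mitosis did not move as one, beside the dividing cells in the low-histone set. Of 50 tested, 9 (18%) were at least 1.5-fold higher and 2 (4%) lower (median log2 0.10). All tested genes had 3.84% higher and 2.62% lower, so the lower share was near that of all genes. Top2a, the topoisomerase that untangles sister chromatids, had 629 CPM in the set and 274 CPM in the low-histone set (2.30-fold), and Aurkb, the kinase of the chromosomal passenger complex, 46.2 and 22.8 CPM (2.02-fold). Ube2c, a ubiquitin enzyme of mitotic exit, had 335 and 523 CPM (1.56-fold lower), and Cdkn3, a phosphatase that acts on cyclin-dependent kinases, 13.3 and 25.3 CPM (1.91-fold lower). Over the 967 cells of the low-histone set outside the mitosis-high set, 21 of the 50 were at least 1.5-fold higher and 0 lower (median log2 0.50), where 5.76% of all tested genes were higher and 3.43% lower. Against that remainder Mki67, the common proliferation marker, had 119 CPM in the set and 50.4 CPM (2.36-fold), and Top2a was 3.97-fold higher. Against the whole low-histone set, where 3.84% of all tested genes were higher, condensin and cohesin genes had 7 of 21 higher and 0 lower. The highest were the condensin subunits Ncapg2 (20.01 and 8.996 CPM, 2.22-fold), Ncaph and Smc4 (409 and 229 CPM, 1.79-fold).

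Within the set, cells rich in licensing transcripts tended to be poor in G2 and mitosis transcripts. Over the 475 cells at 5 or more histone UMIs per 10000, Spearman's rho between the 2 lists' shares of UMIs was -0.42, and over all 560 cells it was -0.27. Licensing and fork lists went together, with rho of 0.36 over the 475 cells and 0.47 over all 560. G2 and mitosis genes correlated with the 6 mitosis genes of the rule (0.75 and 0.76). All points share 1 library and unequal depth, and licensing shares correlated with depth at -0.24 over the 475 cells, so these values describe the cells and carry no test.

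Among genes of DNA methylation and demethylation 3 of 7 were at least 1.5-fold higher and 0 lower. The background over all tested genes was 3.84% higher and 2.62% lower. Dnmt1, which copies DNA methylation, had 159 CPM in the set and 96.9 CPM in the low-histone set (1.64-fold), and its partner Uhrf1 42.7 and 19.4 CPM (2.20-fold). Dnmt3a, a de novo methyltransferase, had 17.9 and 19.7 CPM, and Dnmt3l had 0 UMIs in the set and 8 in the low-histone set. In the polycomb and H3K9 list 1 of 18 was at least 1.5-fold higher: Ezh2, which methylates H3K27, had 220 CPM in the set and 98.2 CPM in the low-histone set (2.24-fold, 2.13 to 2.36), whereas its paralog Ezh1 had 19.3 and 24.3 CPM.

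**Figure D4:**
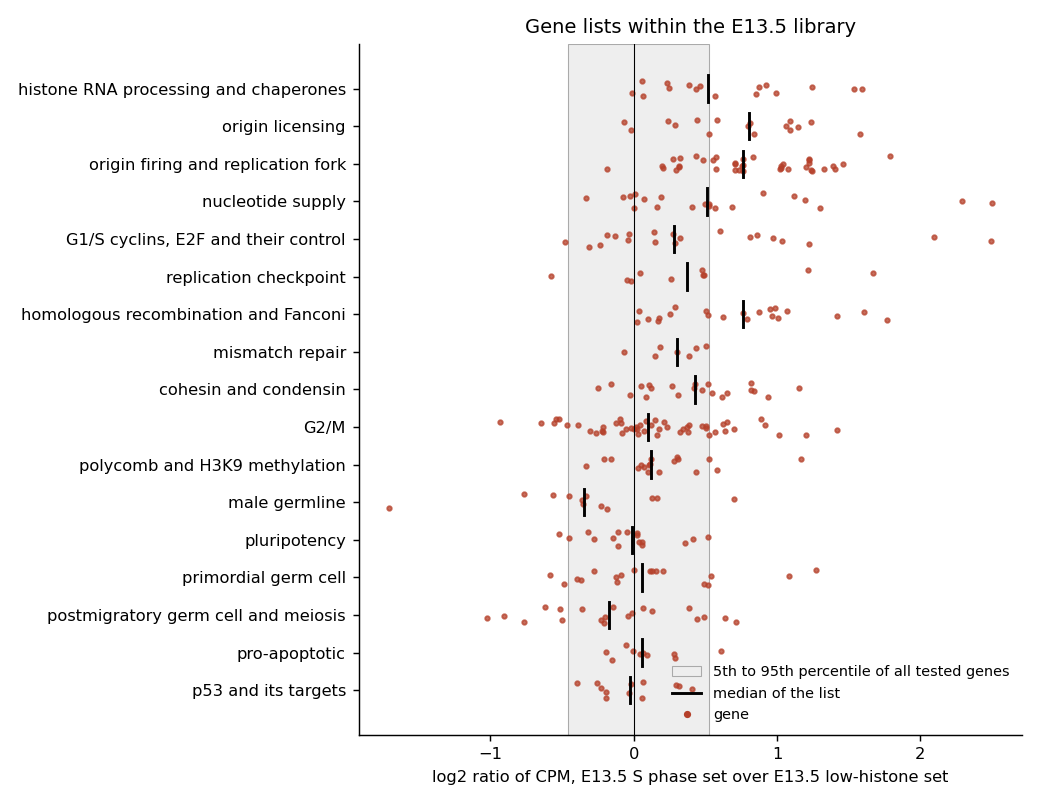
Log2 ratio of CPM, E13.5 S phase set over E13.5 low-histone set, for each tested gene (red) of 17 lists, with the list's median (black) and the 5th to 95th percentile of all tested genes (grey, -0.46 to 0.52). The band is of single genes and is no measure of the spread of a list's median; the medians run from 0.81 for licensing to -0.34 for the male germline list.

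Among genes lower in the set, Nanos2 had the smallest ratio of the named genes. Nanos2 encodes an RNA-binding protein that sets the male germline programme (chr7:18987400-18988962, plus strand, GRCm38). It had 145 UMIs (10.7 CPM) in the set and 984 UMIs (35.1 CPM) in the low-histone set, 3.27-fold lower (2.74 to 3.92). Its level was 8.68 CPM in the 475 cells at 5 or more histone UMIs per 10000, 23.8 CPM in the 85 below, and 24.2 CPM in the cells between the cut and the median. In the mitosis-high set it was 12.54 CPM, and in the low-histone set outside the mitosis-high set 43.2 CPM, so Nanos2 was low in both sets with cycle transcripts. Thinned to 10000 UMIs, 9.01% of the set (19.1% unthinned) and 26.6% of the low-histone set (42.6% unthinned) carried a Nanos2 UMI. None of the 17 barcodes with Sertoli markers did, which allows a share of up to 19.5%, so that the set's share could not be told from background by this check.

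The rest of the 12 lowest were Nradd, Emp2, Isg15, Snhg11, Pramef12, Asb9, Gal, Krt17, Xbp1, Xlr5c and Tuba1c, 2.28-fold to 2.97-fold lower. Krt17, a keratin, had 306 UMIs (22.7 CPM) in the set and 1483 UMIs (52.9 CPM) in the low-histone set. Xbp1, a factor of the unfolded protein response, had 11.8 CPM in the set and 27.2 CPM in the low-histone set. Tuba1c, a tubulin, differed least of the 12 when the mitosis-high cells were taken out of the low-histone set, with 17.5 CPM in the set and 25.5 CPM in the remainder.

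Genes of the male germline list other than Nanos2 were mostly within 1.5-fold. Of 12 tested, 1 was at least 1.5-fold higher and 2 lower (median log2 -0.34), against 3.84% and 2.62% of all tested genes. Bnc1, a zinc finger factor, had 11.3 CPM in the set and 19.3 CPM in the low-histone set (1.70-fold lower), and the piRNA factor Piwil2 had 22.6 and 33.3 CPM. Of 20 postmigratory germ cell and meiosis genes tested, 2 (10%) were at least 1.5-fold higher and 4 (20%) lower (median log2 -0.17). Syce2, of the central element of the synaptonemal complex, had 346 and 211 CPM (1.64-fold higher). Sycp1, which forms the complex's transverse filaments, had 131 CPM in the set and 200.9 CPM in the low-histone set (1.54-fold lower), Taf7l 7.12 and 14.5 CPM (2.04-fold lower), and the piRNA pathway gene Gtsf1 21.3 and 39.9 CPM (1.88-fold lower). Stra8, which responds to retinoic acid, had 2.37 and 1.89 CPM.

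Several genes that separate the 2 libraries also separated the S phase set from the low-histone set. The lists of stage genes were chosen on these same libraries, so their direction is no independent evidence. Of 7 tested genes from the list lower at E13.5 than at E12.5, 4 exceeded the low-histone level 1.5-fold or more and 0 were lower. Rhox9, an X-linked homeobox gene (chrX:37899097-37901770, minus strand, GRCm38), had 1186 UMIs (87.9 CPM) in the E13.5 set and 1019 UMIs (36.4 CPM) in the E13.5 low-histone set, 2.42-fold higher (2.22 to 2.63). Its E12.5 levels were 540 CPM in the S phase set and 517 CPM in the low-histone set. Rhox6, its close paralog, had 49.7 and 23.4 CPM at E13.5 (2.12-fold, 1.90 to 2.37) and 279 and 289 CPM at E12.5; reads of the pair may be hard to assign. Thinned to 10000 UMIs, 42.6% of the E13.5 set (59.5% unthinned) and 19.9% of the low-histone set (31.1% unthinned) carried a Rhox9 UMI, against 0 of 17 Sertoli-marker barcodes, which allows up to 19.5%. All 10 listed genes of this kind summed to 325 CPM in the E13.5 set, 191 CPM in the E13.5 low-histone set, 1616 CPM in the E12.5 set and 1619 CPM in the E12.5 low-histone set.

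Of 10 tested genes that were higher at E13.5 than at E12.5, 0 were at least 1.5-fold higher in the set and 5 lower (median log2 -0.57). Ptgr1, an oxidoreductase, had 41.3 CPM in the set and 74.5 CPM in the low-histone set (1.81-fold lower), and Uchl1, a deubiquitinating enzyme, 164 and 264 CPM (1.61-fold lower). Their E12.5 levels were 2.98 and 3.796 CPM for Ptgr1 and 32.8 and 38.1 CPM for Uchl1, in the set and the low-histone set. Together the 10 had 702 CPM in the E13.5 set, 1012 CPM in the E13.5 low-histone set, 152 CPM in the E12.5 set and 148 CPM in the E12.5 low-histone set. In both summed lists the E13.5 set thus lay between the E13.5 low-histone set and the E12.5 sets, nearer to the E13.5 low-histone set. Within the E12.5 library neither list had a gene at least 1.5-fold higher in the S phase set, and 1 of 10 and 0 of 7 were lower. Over all genes tested there 1.09% were higher and 1.97% lower, so counts this small do not set these short lists apart.

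**Figure D5:**
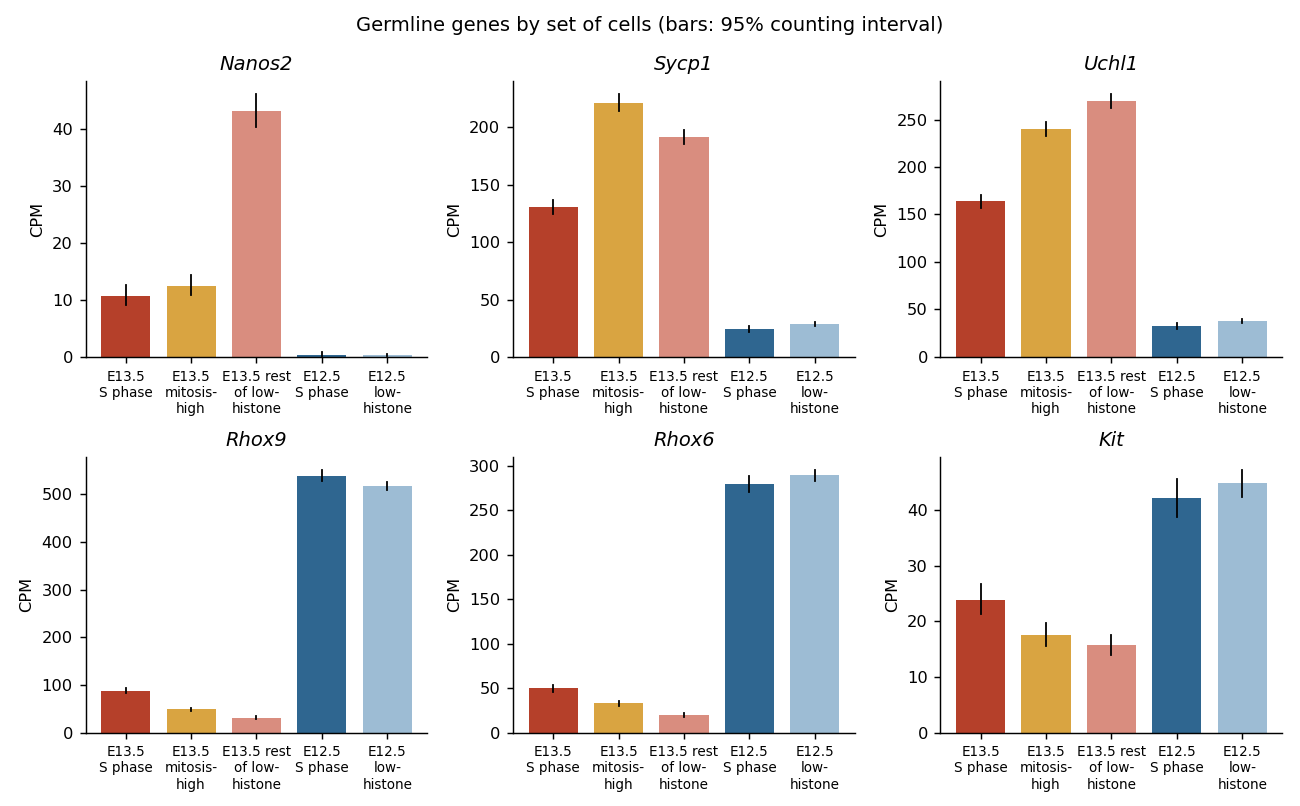
CPM with 95% Poisson counting intervals of 6 germline genes in the E13.5 S phase set, the E13.5 mitosis-high set, the rest of the E13.5 low-histone set outside the mitosis-high set, the E12.5 S phase set and the E12.5 low-histone set. Nanos2 stands at 10.7 CPM in the E13.5 set and 43.2 CPM in the rest of the low-histone set, and Rhox9 at 87.9 and 31.4 CPM.

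Core germ cell and pluripotency genes named here differed by less than 1.5-fold between the set and the low-histone set. Of 16 pluripotency genes tested, 0 were at least 1.5-fold higher or lower, where 3.84% of all tested genes were higher and 2.62% lower. Of 18 primordial germ cell genes tested, 2 were higher and 0 lower. Against the low-histone set outside the mitosis-high set, 4 of these 18 were higher and 1 lower. There the pluripotency genes had 2 of 16 higher and 1 lower, where 5.76% of all tested genes were higher and 3.43% lower. Pou5f1 had 730 CPM in the set and 701 CPM in the low-histone set, Sox2 101 and 98.8 CPM, and Nanog 22.8 and 24.6 CPM. Dppa5a, part of the germ barcode rule, had 2428 and 1824 CPM (1.33-fold), and Dazl, an RNA-binding protein of germ cells also in that rule, 1050 and 1203 CPM. Kit, the receptor for Kit ligand, had 322 UMIs (23.9 CPM) in the set and 460 UMIs (16.4 CPM) in the low-histone set, 1.45-fold higher (1.26 to 1.68).

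Among cell death genes, Pmaip1, which encodes the BH3-only protein Noxa, had 514 UMIs (38.1 CPM) in the set and 1218 UMIs (43.5 CPM) in the low-histone set, 1.14-fold lower (1.03 to 1.27). Bax, an effector of mitochondrial death, had 583 and 556 CPM. Of 10 pro-apoptotic genes tested, 1 was at least 1.5-fold higher and 0 lower. Of 12 p53 genes and targets tested, 0 were higher or lower. Since 3.84% of all tested genes were higher and 2.62% lower, counts this small do not set these short lists apart. Trp53 had 183 CPM in the set and 147 CPM in the low-histone set.

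At E12.5 the same rule gave smaller differences. Of 6870 genes tested there, 75 (1.09%) were at least 1.5-fold higher in the E12.5 S phase set over the E12.5 low-histone set and 135 (1.97%) lower. The replication lists had 13 of 76 higher and 0 lower (median log2 0.30). Fbxo5 was 1.83-fold higher (131 and 71.5 CPM), Gmnn 1.29-fold (407 and 316 CPM) and Wee1 1.16-fold (40.8 and 35.3 CPM). Of the G2 and mitosis genes, 0 of 51 were higher and 19 lower (median log2 -0.45), beside the larger share of dividing cells in that low-histone set. Over its cells outside the mitosis-high set, where 0.801% of tested genes were higher and 1.25% lower, 2 of the 51 were at least 1.5-fold higher and 11 lower (median log2 -0.27). In that comparison 7 replication genes were at least 1.5-fold higher and 2 lower. Over 6396 genes tested in both libraries, log2 ratios had a Spearman's rho of 0.44, given as a description across genes. Of the 255 higher at E13.5, 48 (18.8%) were also higher at E12.5, where they made up 82.8% of 58.

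Set against the E12.5 S phase set, the E13.5 S phase set had close levels of replication transcripts. Over 6817 genes tested, 373 (5.47%) exceeded the E12.5 set 1.5-fold or more and 433 (6.35%) lower; of the 76 replication genes 1 was higher and 3 lower (median log2 -0.08). Tipin was the gene that was higher, with 267 CPM at E13.5 and 171 CPM at E12.5, and Rrm2 had the smallest ratio, with 70.0 CPM at E13.5 and 142 CPM at E12.5. Fbxo5 had 133 and 131 CPM, Pcna 98.7 and 101 CPM, and Slbp 490 and 460 CPM. The low-histone sets differed more. Of 6901 genes tested, 573 (8.3%) had levels 1.5-fold or more higher in the E13.5 low-histone set than in the E12.5 low-histone set and 794 (11.5%) lower, and of 76 replication genes 1 was higher and 31 lower (median log2 -0.52). The rule takes fixed shares of each library, and the E12.5 low-histone set reached a histone score of 2.71 and the E13.5 one 0.717.

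Compared with the E13.5 mitosis-high set (638 cells, none of them in the set), 163 of 6824 genes (2.39%) were at least 1.5-fold higher in the S phase set and 150 (2.2%) lower. Replication lists had 32 of 74 higher and 0 lower (median log2 0.50). Rrm2 had 70.0 CPM in the set and 18.6 CPM in the mitosis-high set, and Ccne1 45.7 and 9.51 CPM. Of the G2 and mitosis genes 0 of 50 were higher and 21 lower (median log2 -0.52), a direction that the choice of cells favours, yet Top2a had 629 CPM in the set and 618 CPM in the mitosis-high set. Rhox9 had 87.9 and 48.7 CPM, Sycp1 131 and 222 CPM, and Nanos2 10.7 and 12.54 CPM.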

How the data were processed

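The deposited tables hold raw UMI counts per gene and barcode, with no normalisation. Per the submitters' processing notes, Cell Ranger and mm10 (GRCm38) were used; the aligner version and the annotation are not given here. Germ barcodes and cell sets were taken as the report states, and UMIs were summed within each set and scaled to its total. Only genes at 10 CPM or more over all germ barcodes entered the counts of genes by size (1.5-fold), and ratios were computed where both sets had 3 UMIs. Intervals are exact at 95%, from the binomial distribution (Clopper-Pearson) for ratios and shares and from the Poisson distribution for levels. No test was possible with 1 library per stage. Members and lists were chosen with earlier results of these data known. Sertoli-marker barcodes had 3 or more Sertoli markers and under 0.2% germ marker UMIs.

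The rule for named genes took the 12 highest and 12 lowest ratios with an interval that left out 1 (without the 11 rule genes and without predicted, haemoglobin, ribosomal protein or mitochondrial genes), up to 3 genes at either end of a list with its most abundant gene, all clustered histones and a fixed set of cell cycle and germ cell genes. Pclaf, E2f8, Cdc6, Mcm2, Mcm3, Mcm6, Dnmt3l and other genes outside it were named after their values were seen. A few list members are not reported here. Gene coordinates are from GENCODE on GRCm38. Alternatives changed the share of cells taken, the score, the cells compared with, scaling (TMM in edgeR 4.0.16), the minimum level, weighting, cell filters and doublets (Scrublet in scanpy 1.11.5, expected rate 0.06). Python 3.11.15, numpy 2.4.6, scipy 1.17.1 and pandas 2.3.3 were used, and the calculation was tested on simulated counts.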

Additional observations from a re-analysis of the deposited data

Results flagged for a closer look

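Snhg11, a small nucleolar RNA host gene, had opposite directions in the 2 libraries. At E13.5 it had 96 UMIs (7.12 CPM) in the S phase set and 556 UMIs (19.8 CPM) in the low-histone set, a log2 ratio of -1.48 (2.79-fold lower, counting interval 2.24 to 3.50). At E12.5 it had 44 UMIs (3.05 CPM) in the S phase set and 47 UMIs (1.55 CPM) in the low-histone set, a log2 ratio of 0.97 (1.96-fold higher, 1.27 to 3.03). At E12.5 Snhg11 lay under the minimum level of 10 CPM, so it was not among the genes tested there. Of the 6396 genes tested in both libraries, 0 were at least 1.5-fold lower at E13.5 and higher at E12.5. The difference between the libraries was not tested, since each stage is 1 library. In the E13.5 mitosis-high set Snhg11 had 5.03 CPM, and in the rest of the low-histone set 25.8 CPM.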

How the results depend on the processing

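Under 19 alternatives no named gene past 1.5-fold (72 of them) reversed its direction. However, up to 10 of them came under 1.5-fold (10 on thinned cells, 9 with a wider set of 676 cells, 7 with cells and values from separate UMIs, 7 with stricter depth and mitochondrial filters), and up to 8 moved by over 1.5 times. Nanos2 had a log2 ratio of -1.71 (-2.32 to -1.17 over the alternatives), Rhox9 1.27 (1.002 to 1.6) and Fbxo5 2.49 (2.03 to 3.17). No paired analysis was possible because the labels give no replicate numbers and each stage is 1 library. Genes at least 1.5-fold higher (262) numbered 89 with a minimum of 50 CPM, 1274 with no minimum, and 435 with the members at 5 or more histone UMIs per 10000 over the low-histone set without mitosis-high cells. Genes at least 1.5-fold lower (179) numbered 319 with a set of the 246 cells of highest score, 89 with a wider set of 676 cells, 82 with scores on thinned cells, 19 with a minimum of 50 CPM, 1467 with no minimum, and 288 with the members at 5 or more over the low-histone set without mitosis-high cells. Replication genes higher (41) numbered 24 with a minimum of 50 CPM, where fewer genes are tested. Lower G2/M genes (2) numbered 4 with the 246 highest cells, 4 without Hist1h2ap, 1 with no exclusion by mitosis genes, 0 against the low-histone set without mitosis-high cells (also 0 with members at 5 or more), 5 against all other germ barcodes, 4 when cells and values came from separate UMIs, 1 at 50 CPM, and 5 with 10000 or more UMIs and under 5% mitochondrial UMIs. TMM factors gave 314 higher and 140 lower, and a denominator without mitochondrial, ribosomal protein, clustered histone and the 50 most abundant genes gave 234 and 228. The set at 5 or more histone UMIs, both comparisons with it, and the left-out haemoglobin-rich barcode were chosen after seeing the data. On thinned cells ties at the median put 1688 cells in the low-histone set. The cause of these changes was not tested. Without the haemoglobin-rich barcode 260 genes were higher and 179 lower. Depth limits genes with few UMIs, such as Snhg11 (96 and 556) and Nanos2 (145 and 984 in the S phase set and the low-histone set at E13.5).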
